A study of Mus musculus with 12 samples.

Results

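The naive pluripotency factors examined here are 10 genes that mark mouse embryonic stem cells (ESCs) in their earliest pluripotent state: Zfp42, Klf2, Klf4, Klf5, Esrrb, Tfcp2l1, Nr0b1, Prdm14, Tcl1 and Fbxo15. They were chosen by name. Each was found at 1 locus of the authors' transcript assembly, and these 10 loci were taken out of 80012 counted loci, of which 18015 were expressed highly enough to be tested. All 10 passed that filter.

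The study followed a mouse reporter ESC line, C57BL/6 by its labels, in which a green fluorescent protein (EGFP) cassette sits at the start of the endogenous gene for Eomes, a T-box protein that directs mesendoderm formation. Poly(A) RNA was sequenced from 12 libraries in 3 groups of 4, with the replicate numbers 1, 2, 5 and 6 in each group, from 4 differentiation sets. ESCs (day 0) were grown on mouse embryonic fibroblast feeders in serum medium with leukemia inhibitory factor (LIF). The other groups came from embryoid bodies formed in hanging drops, in a serum medium for which no LIF is listed, and sorted on day 3 by their fluorescence: Eo+ cells had switched the Eomes reporter on, and Eo− cells had not. All groups carry the reporter and come from this line, and no library of cells kept with LIF to day 3, or of unsorted cells, is in the data.

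Naive pluripotency is the state of the preimplantation epiblast and of ESCs kept with LIF. LIF acts through its receptor, gp130 and the kinase Jak1 on the transcription factor Stat3, which drives genes such as Klf4 and Tfcp2l1, while Klf2, Esrrb, Nr0b1 and Prdm14 form further inputs to the same network around Oct4 (Pou5f1), Sox2 and Nanog. When cells leave this state and pass into formative and primed pluripotency the naive factors are shut down, whereas Oct4 is kept for longer. Eomes is a T-box factor of the early mesendoderm, and sorting by it separates cells of the same embryoid bodies by its expression.

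Promoter windows of 250 bases before the annotated start were read from RefSeq on GRCm38.p6 for 7 of the factors (8 windows, since Esrrb has 2 starts). They were searched on both strands for 4 short motifs known to be bound by regulators of this network, none of which overlapped another where found. The octamer of Oct4, ATGCAAAT, is in 1.6% of all 32851 promoter windows. The Esrrb motif TCAAGGTCA is in 0.387%, the Klf motif GGGTGTGG in 3.2% and the Stat3 motif TTCCNGGAA in 0.913% of them. Of the 8 windows, the one of Zfp42 held matches: an octamer that begins 186 bases before the start and a Klf motif that begins 75 bases before it, both on the opposite strand. In the other 7 windows these letters were not found. The windows of Zfp42, of Tcl1 (the factor that differed most between Eo+ and Eo−) and of Klf4 (one of those that did not pass the test there) are shown 5′ to 3′ on the strand of the gene, with the matches in capitals, from chr8:43307010-43307259, minus strand (Zfp42), chr12:105222738-105222987, minus strand (Tcl1) and chr4:55532476-55532725, minus strand (Klf4).
Zfp42: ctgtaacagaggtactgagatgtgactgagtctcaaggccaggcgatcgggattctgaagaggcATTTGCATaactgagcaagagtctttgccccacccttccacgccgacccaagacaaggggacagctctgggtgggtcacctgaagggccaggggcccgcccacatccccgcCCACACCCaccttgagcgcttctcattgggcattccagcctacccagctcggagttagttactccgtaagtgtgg
Tcl1: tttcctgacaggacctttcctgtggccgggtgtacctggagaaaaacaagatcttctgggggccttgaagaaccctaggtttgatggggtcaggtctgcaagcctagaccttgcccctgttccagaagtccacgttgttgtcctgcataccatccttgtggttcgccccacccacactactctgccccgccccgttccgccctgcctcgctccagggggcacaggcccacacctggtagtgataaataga
Klf4: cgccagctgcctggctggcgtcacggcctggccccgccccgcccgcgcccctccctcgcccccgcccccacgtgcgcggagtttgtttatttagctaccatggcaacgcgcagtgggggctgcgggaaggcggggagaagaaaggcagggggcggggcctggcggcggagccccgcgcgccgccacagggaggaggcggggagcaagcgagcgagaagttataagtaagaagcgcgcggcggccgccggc
A match is a stretch of letters, and binding at it was not measured in these data. Distances are from the annotated start, which need not be the start used here. The assembled loci of Tcl1, Klf4 and Nr0b1 span the whole of their windows, as that of Esrrb does for its later start. Those of Zfp42 (to chr8:43307181) and Klf2 reach into their windows. Promoters of Klf5, Prdm14 and Fbxo15 were not analysed here.

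Libraries held 648413022 to 837308168 counts over all loci, so that 3 counts correspond to 0.00354 to 0.00467 CPM (counts scaled to a common library size, with TMM factors). Replicates of a group differed far beyond counting error, and no pair looked like repeats of 1 library. The labels were checked with Eomes, which read 36.4 to 57.2 CPM in ESCs, 116 to 168 in Eo− and 446 to 641 in Eo+ without overlap. The ESC libraries held the defining markers of their label, with Pou5f1 at 1246 ± 187, Nanog at 461 ± 99.8 and Sox2 at 357 ± 46.8 CPM (SD, n = 4). The summed level of 10 markers of feeder fibroblasts was 101 to 249 CPM in the ESC libraries, against 33.7 to 49.4 in Eo− and 28.3 to 58.0 in Eo+. All 10 of these markers had counts in every ESC library, and S100a4, at 6.54 to 20.5 CPM in ESCs, fell to 0.0155 CPM or less in every sorted library. The part of feeder RNA in the levels of the factors was not tested.

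All 10 factors were lower in Eo− than in ESCs and all 10 were lower in Eo+ than in ESCs, by the limma test at an adjusted p of at most 0.05. Over all loci tested, 31.3% were called lower in Eo− and 36.1% in Eo+, and 30.9% and 35.7% were called higher. The split in Eo− moved with the scaling, to 27.8% lower and 35.0% higher with library totals and 34.1% and 28.1% with DESeq2 size factors. The libraries of the groups did not overlap for any of the 10 factors in either comparison. Of all loci tested, 27.5% (Eo−) and 31.9% (Eo+) were called lower without such overlap. The median log2 fold change of the factors was −3.59 in Eo− (from −4.45 for Klf4 to −2.11 for Prdm14) and −5.97 in Eo+ (from −10.04 for Tcl1 to −3.23 for Klf5), beside 0.01 and 0.00 for all loci tested. Summed over the 10 factors, the level was 1890 to 2560 CPM in the ESC libraries, 157 to 266 in Eo− and 40.9 to 66.0 in Eo+. In bulk libraries, fewer cells that express a gene and less RNA of it per cell cannot be told apart. Beyond the 4 differentiation sets nothing says how separate the cultures of a group were, so the p-values measure the spread between these libraries, which may be technical in part.

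Between the sorted fractions, 8 of the 10 factors were lower in Eo+ than in Eo−, and Klf4 and Klf5 did not pass the test. Of all loci tested, 24.7% were called lower and 23.0% higher in this comparison. For these 8 the libraries did not overlap either, beside 21.3% of all loci called lower without overlap. The median over the 10 was −2.62 on the log2 scale, against −0.02 for all loci.

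**Figure D1:**
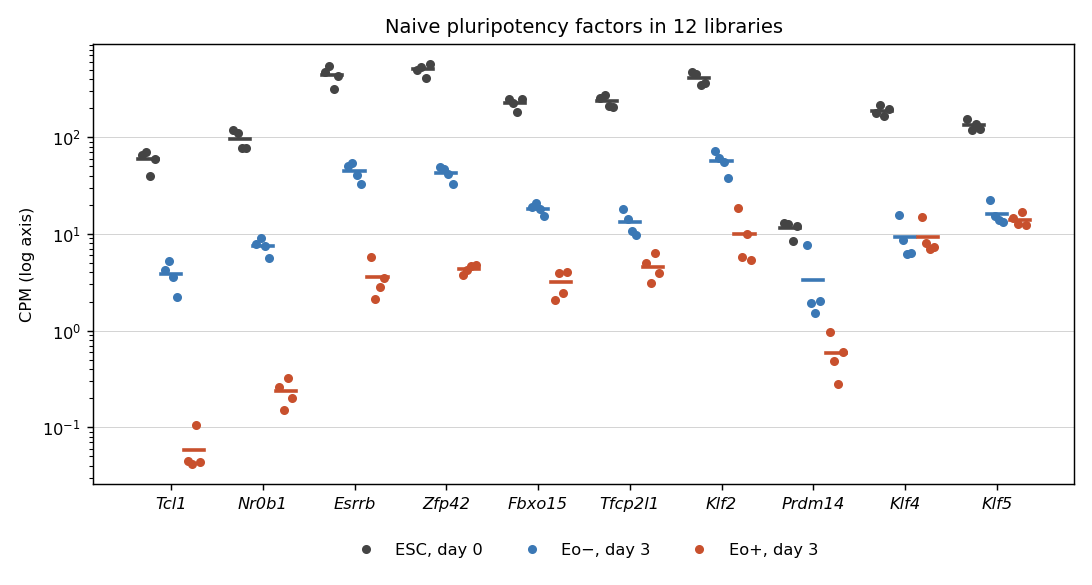
Level of each factor in every library (CPM, log axis), ordered from the deepest fall in Eo+ on the left. Points are libraries, 4 per group, and bars are group means. Tcl1 went from 40.1–71.2 CPM in ESCs to 0.0414–0.105 in Eo+, whereas the Eo− and Eo+ points of Klf4 and of Klf5 overlap.

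Esrrb and Nr0b1 are orphan nuclear receptors. Esrrb (chr12:86361117-86522882 in mm10, the extent of the locus over its exons and introns) binds DNA near many genes of the naive network. Esrrb read 469, 548, 315 and 429.7 CPM in the ESC libraries of replicates 1, 2, 5 and 6. The same replicates read 50.2, 53.9, 41.0 and 32.6 in Eo− and 5.76, 2.13, 2.85 and 3.51 in Eo+. The 3 groups formed separate steps, and within Eo+ replicate 1 was the highest. The log2 fold change was −3.31 ± 0.19 (SE, limma adjusted p = 1.85e-08) in Eo− and −7.02 ± 0.33 (limma adjusted p = 9.72e-10) in Eo+, a fall of 9.89-fold and 129-fold. Eo+ lay −3.71 ± 0.34 from Eo− (limma adjusted p = 2.4e-06).

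Nr0b1 (Dax1, chrX:86187146-86195947) lacks the usual DNA-binding domain of its family and acts as a corepressor and partner of other factors. Its ESC libraries read 119, 110.4, 77.5 and 77.2 CPM. Eo− libraries read 7.95, 9.08, 7.55 and 5.70 and Eo+ libraries 0.260, 0.150, 0.326 and 0.202 CPM. No library of one group reached the range of another. Nr0b1 kept 7.89% of its ESC mean in Eo− and 0.245% in Eo+. The log2 fold changes were −3.66 ± 0.20 in Eo− (limma adjusted p = 1.17e-08) and −8.71 ± 0.41 in Eo+ (limma adjusted p = 1.02e-09), and the sorted fractions differed by −5.05 ± 0.44 (limma adjusted p = 1.63e-06).

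Klf2, Klf4 and Klf5 are Krüppel-like zinc finger transcription factors with overlapping targets in ESCs, and Klf4 is one of the factors used to reprogram somatic cells. Klf2 (chr8:72319033-72321706) read 469.5, 454, 346 and 367 CPM in ESCs, in the same order of replicates. It read 71.5, 60.5, 55.4 and 37.5 in Eo− and 18.5, 5.71, 9.98 and 5.43 in Eo+. The groups were apart, and the highest Eo+ library, replicate 1, lay below the lowest of Eo−. Klf2 fell by 7.40-fold in Eo− (log2 −2.89 ± 0.22, limma adjusted p = 1.64e-07) and 46.1-fold in Eo+ (log2 −5.53 ± 0.31, limma adjusted p = 4.27e-09), with −2.64 ± 0.32 between the fractions (limma adjusted p = 2.58e-05).

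Klf4 followed another course. Its assembled locus (chr4:55527139-55598054) extends upstream of the annotated gene. Klf4 read 179.6, 214, 164 and 194 CPM in the ESC libraries. In Eo− it read 15.7, 8.62, 6.14 and 6.29 and in Eo+ 15.1, 8.14, 6.96 and 7.24 CPM. The sorted groups overlapped from end to end, and replicate 1 was the highest in both. The measured fall was the largest of the 10 factors in Eo−, 21.8-fold (log2 −4.45 ± 0.24, limma adjusted p = 1.23e-08), and was 20.9-fold in Eo+ (log2 −4.38 ± 0.25, limma adjusted p = 4.27e-09). The sorted fractions differed by 0.06 ± 0.31 (95% confidence interval −0.60 to 0.72, limma adjusted p = 0.887), in a fit that did not pair libraries of the same number. The sign of this estimate turned when replicate 5 or 6 of Eo− (−0.09 and −0.08) or replicate 1 of Eo+ (−0.20) was left out. Each of these runs kept the library of that number in the other fraction. Replicate 1 of Eo+ also had the highest summed levels of its group for feeder markers (58.0 CPM, against 28.3 to 33.1 in the others), visceral endoderm markers (56.2 against 8.93 to 33.0) and endothelial and blood markers (460 against 116 to 428), and not for trophoblast or germ cell markers. Eomes, the gene of the sort, read 446 to 641 CPM in Eo+ and made up most of the trophoblast sum there. In the endothelial and blood list Kdr alone read 71.3 to 291 CPM in Eo+. The part of other cells in the Klf4 level was not tested.

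Klf5 (chr14:99298522-99397355) read 153, 118, 136 and 122 CPM in ESCs. It read 22.3, 15.4, 13.8 and 13.2 in Eo− and 14.5, 12.8, 16.9 and 12.2 in Eo+. Both sorted groups lay far under the ESC libraries and overlapped each other. Klf5 fell by 8.30-fold in Eo− (log2 −3.05 ± 0.15, limma adjusted p = 4.89e-09) and by 9.41-fold in Eo+ (log2 −3.23 ± 0.15, limma adjusted p = 1.02e-09). Eo+ differed from Eo− by −0.18 ± 0.18 (95% confidence interval −0.56 to 0.20, limma adjusted p = 0.419). Within the differentiation sets, the log2 ratio of Eo+ to Eo− was −0.62, −0.27, 0.29 and −0.11 for Klf5 and −0.06, −0.08, 0.18 and 0.20 for Klf4, so neither moved one way in all 4 sets. The intervals of Klf4 and Klf5 end at −0.60 and −0.56, short of the smallest difference among the other 8 factors, −1.53 for Tfcp2l1. Counted within libraries, which needs no scaling, the log2 ratio of each of the other 8 factors to Klf4 was lower in Eo+ than in Eo− by between 1.59 and 6.14, and to Klf5 by between 1.35 and 5.90, without overlap of the libraries in any of these ratios. The ratios were chosen after the values were seen, share their denominators and were not tested.

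**Figure D2:**
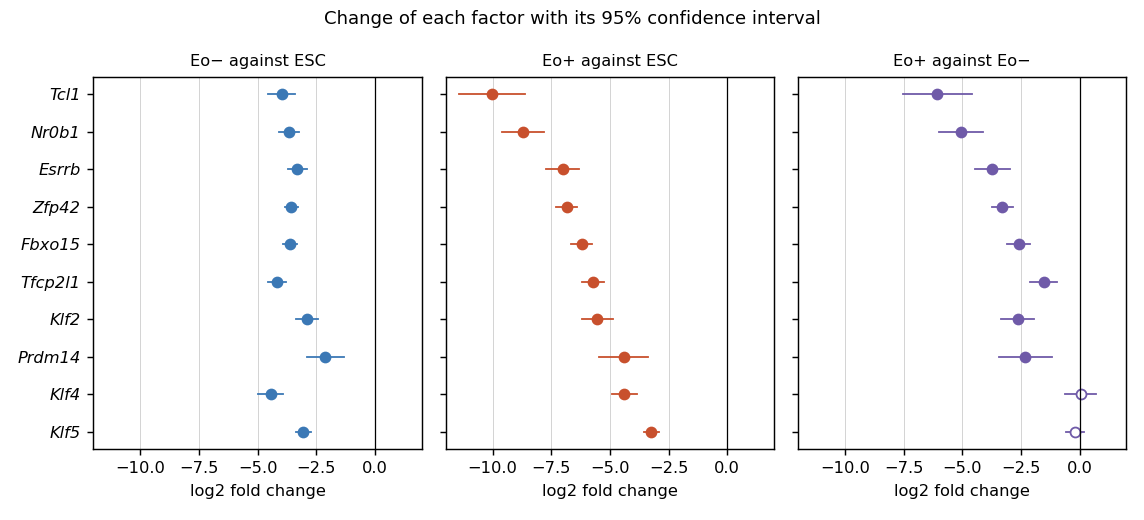
Log2 fold change of each factor with its 95% confidence interval (limma), for Eo− against ESCs, Eo+ against ESCs and Eo+ against Eo−, in the order of the changes in Eo+. Filled points passed an adjusted p of 0.05. The changes in Eo− lie between −4.45 and −2.11, those in Eo+ between −10.04 and −3.23, and in the right panel Klf4 (0.06) and Klf5 (−0.18) are open.

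Tfcp2l1 (chr1:118627945-118685201), a grainyhead-like transcription factor that LIF signalling is known to raise through Stat3, read 257, 270.1, 212 and 206 CPM in the ESC libraries. It read 17.9, 14.1, 10.8 and 9.81 in Eo− and 5.01, 3.13, 6.31 and 3.95 in Eo+. The groups did not overlap, with the smallest step of the 8 factors between the fractions. It fell by 18.2-fold in Eo− (log2 −4.19 ± 0.18, limma adjusted p = 2.41e-09), the second deepest fall there, and by 52.8-fold in Eo+ (log2 −5.72 ± 0.23, limma adjusted p = 2.93e-10). The difference between Eo+ and Eo− was −1.53 ± 0.26 (limma adjusted p = 0.000287). The small gene Gm23497 lies in the same assembled locus, and its counts cannot be split from those of Tfcp2l1.

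Zfp42 (Rex1, chr8:43294239-43307181) is a zinc finger protein related to Yy1 and a widely used marker of the naive state. It read 494.5, 537, 409 and 572 CPM in ESCs. It read 49.7, 46.9, 41.5 and 33.0 in Eo− and 3.78, 4.28, 4.64 and 4.75 in Eo+. The Eo+ libraries lay close together, and each group stood apart from the next. Zfp42 fell by 11.8-fold in Eo− (log2 −3.56 ± 0.12, limma adjusted p = 7.5e-10) and by 115-fold in Eo+ (log2 −6.85 ± 0.20, limma adjusted p = 2.84e-11), and differed by −3.29 ± 0.21 between the fractions (limma adjusted p = 1.69e-07). Its window is the one shown above with an octamer and a Klf motif. Its relative Yy1 stood at 136 CPM in ESCs, 135 in Eo− and 137 in Eo+, and did not pass the test in either (limma adjusted p = 0.824 and 0.93). Yy2, another relative, whose assembled locus also holds Mbtps2, was lower in Eo− (log2 −0.33 ± 0.11, limma adjusted p = 0.0185). It did not pass in Eo+ against ESCs (0.05 ± 0.11, limma adjusted p = 0.69) and was higher in Eo+ than in Eo− (0.38 ± 0.11, limma adjusted p = 0.0118).

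Prdm14 (chr1:13113457-13127163), a PR domain protein that represses FGF signalling and DNA methylation genes in naive cells and also marks germ cell precursors, was the lowest of the 10 in ESCs. Its ESC libraries read 13.1, 12.6, 8.52 and 12.1 CPM. In Eo− it read 7.70, 1.92, 1.53 and 2.05 and in Eo+ 0.959, 0.489, 0.281 and 0.604 CPM. Replicate 1 of Eo− stood close under the lowest ESC library and far above the rest of its group. The fall was 4.32-fold in Eo− (log2 −2.11 ± 0.37, limma adjusted p = 0.000243) and 21.4-fold in Eo+ (log2 −4.42 ± 0.48, limma adjusted p = 1.9e-06), with −2.31 ± 0.53 between the fractions (limma adjusted p = 0.00292). Without replicate 1 of Eo− the group mean went from 28.5% to 15.8% of the ESC mean, the log2 fold change in Eo− to −2.65 and the difference of Eo+ from Eo− to −1.76. The same library had the highest summed level among Eo− libraries for all 5 lists of markers of other cells. It held 80.0 CPM of germ cell markers (42.7 to 50.3 in the others), 238 of endothelial and blood markers (32.6 to 60.9), 15.2 of visceral endoderm markers (5.72 to 7.01), 206 of trophoblast markers (131 to 191) and 49.4 of feeder markers (33.7 to 41.8). Eomes, the gene of the sort, read 116 to 168 CPM in Eo− and made up most of the trophoblast sum there. The part of other cells in the Prdm14 level was not tested.

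Tcl1 (chr12:105212044-105223116), a coactivator of the kinase Akt, fell furthest in Eo+. It read 65.1, 71.2, 40.1 and 59.5 CPM in ESCs and 4.27, 5.24, 3.55 and 2.23 in Eo−. In Eo+ it read 0.0446, 0.0414, 0.105 and 0.0436 CPM, which are 35, 32, 75 and 28 counts. Replicate 5 stood above the other Eo+ libraries, and all 4 lay far under every Eo− library. Tcl1 fell by 15.8-fold in Eo− (log2 −3.98 ± 0.26, limma adjusted p = 4.86e-08) and to 0.0997% of its ESC mean in Eo+ (log2 −10.04 ± 0.65, limma adjusted p = 1.49e-08). The fractions differed by −6.06 ± 0.68 (limma adjusted p = 1.25e-05). Ordered by the depth of the fall in Eo+, Tcl1 was in place 57 of the 18015 loci tested.

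Fbxo15 (chr18:84933831-84981503) encodes an F-box protein, a substrate adaptor of ubiquitin ligases, and is a known target of Oct4 and Sox2. It read 247, 224, 182 and 246 CPM in ESCs. It read 19.0, 20.8, 18.1 and 15.2 in Eo− and 2.07, 3.99, 2.47 and 4.08 in Eo+. The groups were again in separate ranges. Fbxo15 fell by 12.3-fold in Eo− (log2 −3.62 ± 0.14, limma adjusted p = 1.53e-09) and by 74.1-fold in Eo+ (log2 −6.21 ± 0.22, limma adjusted p = 1.07e-10), and the fractions differed by −2.59 ± 0.23 (limma adjusted p = 2.11e-06). Timm21 overlaps it on the opposite strand at 18.5 CPM in ESCs, 39.3 in Eo− and 44.7 in Eo+, and the counting used strand.

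Neighbours in the order of the falls were compared by the log2 ratio of their counts within libraries, which needs no scaling. The pairs were set by the same fold changes, so that every ratio was lower than in ESCs by construction, and the ratios are a description with no test. In Eo− the ratios of the 9 pairs were lower by 0.04 (Nr0b1 to Fbxo15) to 0.76 (Klf2 to Prdm14). In Eo+ they were lower by 0.03 (Prdm14 to Klf4) to 1.69 (Nr0b1 to Esrrb). Between these lay 1.35 for Tcl1 to Nr0b1, 1.16 for Klf4 to Klf5, 1.12 for Klf2 to Prdm14 and 0.64 for Zfp42 to Fbxo15. The order of neighbours is thus given as measured, without support from a test.

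Levels between genes were compared per length, as FPKM (counts scaled to the library total, without TMM factors, and divided by the exon length of the locus in kilobases). In ESCs the order ran from Klf2 at 183 ± 26.6 and Zfp42 at 159.8 ± 21.5 FPKM through Fbxo15 at 105.5 ± 14.3 to Esrrb at 58.0 ± 12.2, Klf4 at 56.3 ± 5.72 and Nr0b1 at 46.0 ± 10.2. Klf5 (27.7 ± 3.55), Tcl1 (26.3 ± 5.78) and Tfcp2l1 (21.9 ± 2.77) came next, and Prdm14 was last at 4.40 ± 0.773 FPKM (SD, n = 4). Klf2 and Zfp42 overlapped over their libraries, as did Esrrb with Klf4, Klf4 with Nr0b1, Klf5 with Tcl1 and Tcl1 with Tfcp2l1, whereas the other neighbours did not. In Eo− Klf2 (26.5 ± 7.14), Zfp42 (14.3 ± 2.65), Fbxo15 (9.003 ± 1.16) and Esrrb (6.16 ± 1.36) stayed on top in that order, each without overlap with the next. Esrrb, at 4.51 to 7.33 FPKM, still overlapped with Klf5 (2.89 to 5.08) and Klf4 (1.90 to 5.14) further down. Nr0b1 (3.82 ± 0.704), Klf5 (3.57 ± 1.02), Klf4 (2.92 ± 1.52), Tcl1 (1.79 ± 0.590), Prdm14 (1.34 ± 1.24) and Tfcp2l1 (1.29 ± 0.388) followed, each overlapping with the next. The place of Prdm14 in Eo− rests on replicate 1, at 3.19 FPKM against 0.603 to 0.815 in the others, and without it the mean was 0.723 FPKM, below that of Tfcp2l1. In Eo+ the 3 Klf genes led: Klf2 at 4.60 ± 2.85, Klf5 at 3.05 ± 0.524 and Klf4 at 2.89 ± 1.20 FPKM overlapped with each other. Below them were Fbxo15 (1.52 ± 0.471) and Zfp42 (1.43 ± 0.153), which overlapped, then Esrrb (0.485 ± 0.214), Tfcp2l1 (0.441 ± 0.143), Prdm14 (0.228 ± 0.111) and Nr0b1 (0.117 ± 0.0404), each overlapping with the next, and last Tcl1 at 0.0273 ± 0.0152. The exon length of a locus sets these values. With the longest matching transcript in its place, Klf5 moved from 27.7 to 74.9 FPKM in ESCs and stood above Klf4. In Eo− it then stood at 9.65 FPKM, next below Fbxo15 and above Esrrb at 8.19, with Prdm14 last, and in Eo+ it headed the order at 8.24 FPKM.

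The other Klf genes give the background to these falls. Klf2, Klf4 and Klf5 made up 69.1% of the summed FPKM of 17 Klf genes in ESCs (267 of 387), 27.1% in Eo− (33.0 of 122) and 11.7% in Eo+ (10.5 of 90.2). With the longest matching transcript as the length of each gene, a setting added after seeing the data, the shares were 72.9%, 31.0% and 15.8% (16.7 of 106 FPKM in Eo+). On the exon length of the loci Klf6 and Klf16 held the largest shares in Eo+, with 26.5% and 19.4%. On the level scale Klf6 was 25.8 ± 4.08 FPKM in ESCs and 23.9 ± 4.67 in Eo+ (SD, n = 4), and its log2 fold change of −0.16 ± 0.13 did not pass the test (limma adjusted p = 0.272). Klf16 fell by 0.84 (SE 0.07, limma adjusted p = 1.98e-07). Of 24 tested relatives of the 10 factors in 26 listed, 6 rose and 12 fell in Eo− (10 fell when scaled to library totals), and 6 rose and 7 fell in Eo+ (8 fell with DESeq2 size factors), with medians of −0.26 and −0.13. Fbxo10, another F-box gene, rose most in both (log2 1.15 ± 0.12 and 1.32 ± 0.12, limma adjusted p = 3.82e-06 and 4.35e-07). Klf17 fell most (log2 −1.41 ± 0.38 and −4.60 ± 0.58, limma adjusted p = 0.00564 and 7.2e-06), from a low level of 0.720 CPM in ESCs.

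**Figure D3:**
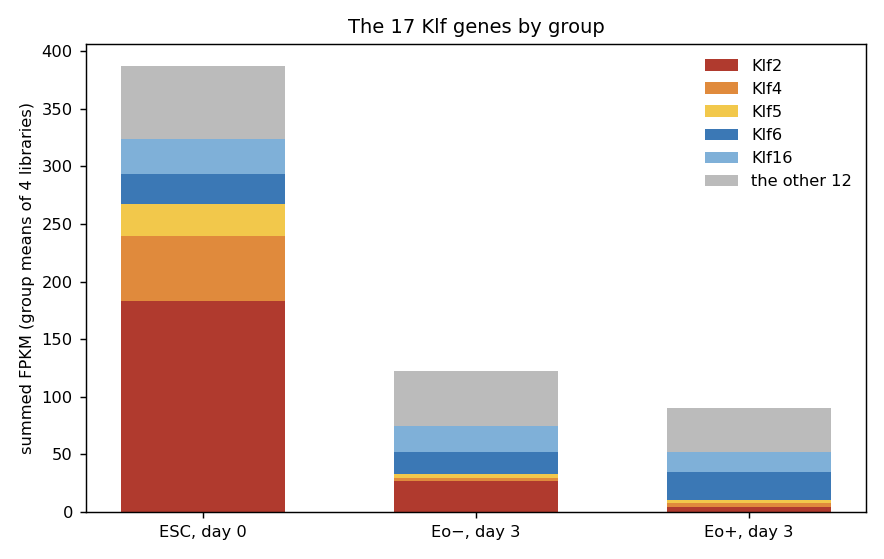
Summed FPKM of the 17 Klf genes by group (means of 4 libraries). Colours mark Klf2, Klf4, Klf5, Klf6, Klf16 and the other 12 genes together. Lengths are exon lengths of the loci. The sum was 387 in ESCs, 122 in Eo− and 90.2 in Eo+, and the share of Klf2, Klf4 and Klf5 went from 69.1% through 27.1% to 11.7%.

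Genes of the LIF pathway were counted in the same fit. Of 8, 7 were lower in Eo− and 6 were lower and 2 higher in Eo+ (5 lower when scaled to library totals), with medians of −1.50 and −2.08. Socs3, the feedback inhibitor that Stat3 induces, read 48.2 to 109 CPM in ESCs, 6.08 to 8.18 in Eo− and 6.12 to 7.99 in Eo+. Its sorted groups overlapped and both lay under the ESC libraries. It fell by 3.65 in Eo− and 3.58 in Eo+ on the log2 scale (SE 0.29 for both, limma adjusted p = 2.36e-07 and 1.07e-07), and between the fractions it differed by 0.07 ± 0.36 (limma adjusted p = 0.887). Stat3 itself fell by 2.27 and 1.92 (SE 0.16 for both, limma adjusted p = 1.17e-07 and 1.43e-07) and differed by 0.35 ± 0.18 between the fractions (limma adjusted p = 0.119), a difference that passed with the replicate number as a block (0.35, limma adjusted p = 0.00517). Jak1 rose in Eo+ (log2 0.72 ± 0.08, limma adjusted p = 2.34e-06). Between Eo+ and Eo−, 2 of the 8 were higher and 3 lower in Eo+ (4 higher and 3 lower with the block), with a median of 0.20.

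Core factors that naive and primed cells share were counted in the same fit. Pou5f1 stood at 1246 ± 187 CPM in ESCs, 1034 ± 157.5 in Eo− and 514 ± 135 in Eo+ (SD, n = 4). Its change in Eo− of −0.27 ± 0.18 did not pass the test (limma adjusted p = 0.2), and in Eo+ it fell by 1.31 (SE 0.18, limma adjusted p = 1.85e-05). Nanog fell by 1.41 and 1.97 (SE 0.18 and 0.19, limma adjusted p = 1.81e-05 and 4.73e-07). Sox2, whose assembled locus also holds Sox2ot, fell by 1.25 and 3.95 (SE 0.16 and 0.20, limma adjusted p = 1.87e-05 and 1.7e-09). Sall4, a zinc finger partner of Oct4, rose in Eo+ (0.32 ± 0.08, limma adjusted p = 0.00265). Of the 4 genes, 2 fell and 0 rose in Eo−, and 3 fell and 1 rose in Eo+.

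Of 10 further genes known from naive or ground-state ESCs, 8 fell in Eo− and 9 in Eo+, and 0 rose against ESCs, with medians of −2.25 and −4.87. Gbx2 fell most in Eo−, from 41.3 ± 4.22 to 1.66 ± 0.346 CPM, and stood at 1.49 ± 0.596 in Eo+. Dppa3 fell most in Eo+, from 31.0 ± 4.75 CPM in ESCs through 6.68 ± 1.01 in Eo− to 0.133 ± 0.0760. The log2 fold changes were −4.66 ± 0.22 for Gbx2 in Eo− (limma adjusted p = 4.19e-09) and −7.99 ± 0.37 for Dppa3 in Eo+ (limma adjusted p = 1e-09). Between the fractions 8 were lower in Eo+ and 1 was higher: Tbx3, a T-box factor of both naive cells and early mesendoderm that is named after its values were seen, stood at 73.9 CPM in ESCs, 4.87 in Eo− and 54.5 in Eo+ (log2 3.45 ± 0.51 between the fractions, limma adjusted p = 0.000114).

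All 9 genes of formative and primed epiblast were higher in Eo− than in ESCs (median 1.50; 8 passed with DESeq2 size factors), and in Eo+ 5 were higher and 3 lower (median 0.65). Fgf5, a growth factor of the epiblast after implantation, rose most in both (log2 3.08 ± 0.29 and 3.74 ± 0.29, limma adjusted p = 1.18e-06 and 7.18e-08). Pou3f1 stood at 34.8 ± 4.59 CPM in ESCs, 88.3 ± 16.8 in Eo− and 9.10 ± 5.15 in Eo+, higher than ESCs in one fraction (log2 1.33 ± 0.20, limma adjusted p = 5.59e-05) and lower in the other (log2 −2.09 ± 0.27, limma adjusted p = 1.05e-05). Of 10 genes known to act in the exit from the naive state, 2 rose and 3 fell in Eo− (1 and 4 with DESeq2 size factors), and 0 rose and 6 fell in Eo+. Rbpj fell by 1.35 in Eo− (SE 0.07, limma adjusted p = 1.13e-08), and Etv5, a target of FGF and Erk signalling, fell by 1.74 in Eo+ (SE 0.12, limma adjusted p = 1.9e-08). Tcf7l1, the Wnt pathway repressor that acts on naive genes, was higher in Eo− (0.40 ± 0.14, limma adjusted p = 0.0223), a call that was lost without replicate 6 of ESCs (0.29) or of Eo− (0.38).

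**Figure D4:**
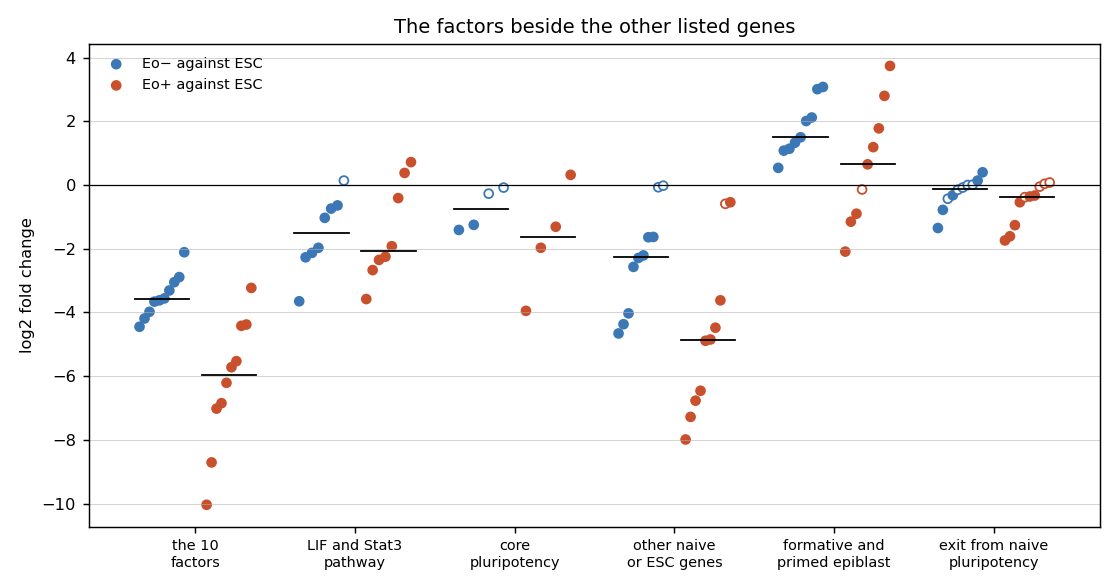
Log2 fold change against ESCs of the 10 factors and of the genes in 5 other lists, in Eo− (blue) and Eo+ (red). Filled points passed an adjusted p of 0.05 (limma), and black bars are medians. The medians in Eo− and Eo+ were −3.59 and −5.97 for the factors, −1.50 and −2.08 for the LIF pathway, −0.76 and −1.64 for core pluripotency, −2.25 and −4.87 for other naive genes, 1.50 and 0.65 for formative and primed genes and −0.11 and −0.37 for genes of the exit.

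Markers of the other cells that the libraries could hold were counted too. Of 8 genes of the primitive streak and mesendoderm, 6 rose in Eo− and 8 in Eo+, and Mesp1 rose most (0.385 CPM in ESCs, 5.81 in Eo− and 134 in Eo+). Of 9 tested feeder markers in 10 listed, 1 rose (Thy1) and 6 fell in Eo− and 7 fell in Eo+, with S100a4 the furthest. Of 7 visceral endoderm markers, 2 rose and 1 fell in Eo− (Apoa4 and Rbp4, and Amn), and 5 rose and 1 fell in Eo+, where Ttr read 0.656 to 22.9 CPM. Of 7 endothelial and blood markers, 4 rose and 1 fell in both fractions, with Kdr at 199 CPM in Eo+ and Pecam1, which ESCs also express, falling. Hbb-bh1, an embryonic globin, read 73.4 CPM in replicate 1 of Eo− and 1.50 to 2.63 in the others, and its call in Eo− was lost without any 1 ESC library (log2 9.74 to 11.44). Of 6 tested trophoblast markers in 7 listed, 1 rose and 2 fell in Eo−, and 2 rose (Eomes and Hand1) and 3 fell in Eo+, Gcm1 furthest. Of 7 germ cell markers, among them Dppa3 and Tfap2c, 6 fell in each fraction. Eomes, Tfap2c, Prdm1, Dppa3 and Pecam1 each stand in 2 of the lists. The part of these cell types in the levels of the factors was not tested.

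Among the protein-coding loci whose pair of log2 fold changes in Eo− and Eo+ lay closest to the medians of the factors were Nkx6-2, Ankrd35, Klk10 and Slc5a1, out of 12207 candidates over the 3 groups. Their Euclidean distances from the medians were 0.16, 0.25, 0.26 and 0.35 on the log2 scale. These 4 were low in ESCs, from 1.69 CPM (Slc5a1) to 7.90 CPM (Nkx6-2), and at 0.0326 to 0.139 CPM in Eo+.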

How the data were processed

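The authors mapped stranded paired reads of poly(A) RNA to mm10 with STAR (version 2.0.4 per the labels), built transcripts with Cufflinks 2.2.1, merged them with Ensembl genes, and obtained a count for each merged locus from HTSeq 0.6.1 (union mode, reverse strand). The deposited values used here are these raw counts, not scaled by the authors. A deposited normalized table was not used. Counter tally lines were left out, of which reads not aligned uniquely made up 22.4% to 26.2%, so near-identical copies are counted low.

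Members were found by gene name in the deposited assembly. The 10 factors and all lists were chosen with earlier results of these data known. Loci entered the test if the mean FPKM of any group was above 0.1 and if they were protein-coding (14245), annotated long noncoding RNAs (998) or non-annotated multi-exon loci (2772), 18015 in all. Counts were fitted over the 12 libraries with limma 3.58.1 voom (R 4.3.3) and TMM factors of edgeR 4.0.16, 1 mean per group, by moderated two-sided tests adjusted by Benjamini-Hochberg over all loci tested with a threshold of 0.05 on the adjusted p. FPKM used the summed exon length of a locus. Floors of 3 counts cover counting error only. The fit was tested on simulated data.

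Named genes are the 10 factors, Pou5f1, Sox2, Nanog and Eomes, the called genes of each list that rose or fell most in Eo− or Eo+ against ESCs, and the 5 loci most like the median factor with at least 1 CPM in ESCs, of which 1 is not reported here. Others are said to be named after their values were seen, or stand in a count or beside a member. Alternatives were the edgeR quasi-likelihood test, DESeq2 1.42.0, other scalings, filters, sample weights, a 2-fold threshold, a replicate block and leaving out each library. Same-numbered Eo+ and Eo− libraries, which come from the same differentiation set, deviated together from their group means (r across loci 0.634, 0.311, 0.371 and 0.408), so the numbers pair the sorted fractions. With ESCs the correlations were −0.125 to 0.431 for Eo− and −0.0959 to 0.135 for Eo+, and the numbers were not taken as pairs.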

Additional observations from a re-analysis of the deposited data

Results flagged for a closer look

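In groups of 4 libraries, a library was singled out when its gap to the nearest other as a share of the range of the group exceeded Dixon's critical value at 95%, which chance gives in about 5% of groups. Of 30 groups of the factors, 3 held such a library. Klf4 read 15.1 CPM in replicate 1 of Eo+, against 6.96 to 8.14 in the others. Prdm14 read 7.70 CPM in replicate 1 of Eo−, against 1.53 to 2.05. Tcl1 read 0.105 CPM in replicate 5 of Eo+, against 0.0414 to 0.0446, and each of these levels is above the floor of 3 counts.

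Of 111 groups screened over the factors and the other named genes, 15 held one. In replicate 1 of Eo− these were Tfap2c at 13.4 CPM (others 5.03 to 5.12), Hbb-bh1 at 73.4 CPM (1.50 to 2.63), Ttr at 3.84 CPM (0.184 to 0.626), Apoa4 at 0.410 CPM (0.0566 to 0.0903) and Tcf7l1, which was low at 96.9 CPM (109 to 111). In replicate 1 of Eo+ they were Pecam1 at 8.79 CPM (0.864 to 1.95), Hbb-bh1 at 7.41 CPM (0.0518 to 1.036) and Jak1 at 69.7 CPM (59.9 to 61.0). Sox2 read 41.7 CPM in replicate 5 of Eo+ (18.4 to 19.6 in the others). In replicate 5 of ESCs Fgf5 read 27.8 CPM (9.40 to 11.2), Pecam1 29.3 CPM (53.4 to 55.8) and Apoa4 0.00259 CPM, where the other ESC libraries had 0 counts and this level is under the floor of 3 counts.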

How the results depend on the processing

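The counts of factors called (10, 10 and 8) did not change in any alternative run. The direction and call of each factor held in 22 alternatives against ESCs in each fraction, with adjusted p of at most 0.00572 (Prdm14, Eo−) and 1.33e-05 (Prdm14, Eo+), and for the 8 factors called between the fractions it held in 23, with adjusted p of at most 0.0102 (Prdm14). Klf4 between the fractions turned to −0.09, −0.08 and −0.20 without Eo− replicate 5, Eo− replicate 6 and Eo+ replicate 1, and was called in none of the alternatives, nor was Klf5. Counts over all loci moved with the threshold and the filter, and their split into higher and lower with the scaling (5569 and 5645 in Eo− vs ESC, 6304 and 5005 with library totals, 5062 and 6139 with DESeq2 size factors): with a 2-fold change required they were 5121 (Eo− vs ESC), 6887 (Eo+ vs ESC) and 3819 (Eo+ vs Eo−), and without a filter, over 69928 loci, 27830, 33849 and 14774, in place of 11214, 12943 and 8581. Other listed genes called between the fractions went from 67 to 44 with a 2-fold change required. With the replicate block, all loci called between the fractions were 9591, or 10440 with only the sorted groups in the fit, and the factors remained 8. Other listed genes called between the fractions were 76 and 82 in these fits, in place of 67, and the list counts given are from the fit without the block unless stated. The block left the factors at 10 in both comparisons with ESCs. Over the other named genes, 9 calls in Eo− vs ESC were lost in single alternatives: Hbb-bh1 without any 1 ESC library (9.74 to 11.44), Tcf7l1 without a filter (0.38) and without ESC replicate 6 (0.29) or Eo− replicate 6 (0.38), Thy1 without ESC replicate 2 (0.41) and Mesp1 without replicate 1 of every group (3.69), a setting added after seeing the data. The cause was not tested. DESeq2 gave no adjusted p for some genes, which entered no count of lost calls. Depth limits the statements on Tcl1 in Eo+, which rest on 28 to 75 counts per library.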
